A study of Mus musculus with 4 samples.

Results

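Gene expression in mouse embryonic fibroblasts (MEFs) carrying a Ccng2 knockout label was compared with that in a wild-type culture that served a different comparison of the same study. The array labelled G2KO is described in the labels as RNA of CycG2-/- cells. The other array, G1G2WT, is labelled CycG1+/+CycG2+/+, the wild type that the labels set beside the CycG1-/-CycG2-/- double knockout (DKO). A further array labelled wild type, CycG2+/+ (G2WT), is the one the labels set beside G2KO. All cells were C57BL/6J MEFs in logarithmic growth in DMEM with serum, with no other treatment, and the methods give embryonic day 12.5 to 14.5 as their source. Each of the 4 groups is 1 array, and the labels give neither the embryo nor its sex. With 1 array a side there is no test and no replicate error, so every ratio below describes these 2 RNA samples and cannot separate the genotype from the culture. Members were all non-control probes well above background on at least 1 of both arrays, which gave 27295 of the 39429 probes.

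The array labelled G2KO goes against the study's description of its G2KO MEFs in several genes. The study's supplement describes its G2KO MEFs as female in origin, with Xist, En2, Foxa2, Sox2 and Sox6 raised and Aspn reduced relative to wild type. Xist, the RNA that silences an X chromosome in female cells, was below background on the array labelled G2KO and at 1.13 times the array's 75th percentile on G2WT, while the Y-linked Ddx3y stood at 1.32 and below background. En2, a homeobox factor, stood at 0.0260 on the array labelled G2KO and 14.8 on G2WT. Foxa2 (2.46 on G2WT), Sox2 (2.37) and Sox6 (0.118) were below background on the array labelled G2KO. Aspn, a small proteoglycan, stood at 3.40 on the array labelled G2KO and was below background on G2WT. Under the deposited labels these directions are the reverse of those the supplement describes, for each of these 6 genes. The supplement describes dye-swapped arrays for its G2KO comparison, while the arrays here are 1-colour, so its values may come from other arrays. Whether the labels G2KO and G2WT were exchanged was not tested, since the groups were taken from the labels alone, and no difference below can be assigned to the loss of Ccng2.

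Cyclin G1 and cyclin G2 are unconventional cyclins that bind the B' subunits of protein phosphatase 2A, and Ccng1 is a classical target of p53. Conventional mitotic cyclins act differently: cyclin B with Cdk1 drives entry into mitosis, and the genes of mitosis are transcribed together late in the cell cycle through promoter elements bound by the DREAM and B-Myb complexes. Embryonic fibroblasts secrete collagens, elastic fibre proteins and small proteoglycans, and they respond to interferon and to serum.

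A level is the processed signal divided by the 75th percentile of its array, and a ratio is log2 of labelled G2KO over G1G2WT. The 75th percentile was 2234 signal units on the array labelled G2KO and 1877 on G1G2WT. Of the members, 25174 were measured on both arrays, 996 were dim on G1G2WT only and 433 were dim on the array labelled G2KO only, where the ratio is a limit ("at least"). Another 692 had no ratio because the limit lay above the bright signal. The scanner software's error estimates gave a median error of 0.20 for a measured log2 ratio. They include a multiplicative error set at 0.1 in the software, so 0.20 largely reflects that setting and not an observed spread. Over 277 probes with 8 or more spots on each array, the median standard error between spots was 0.03. Over 4084 genes with several measured probes, the median range between probes was 0.19. None of these covers differences between cultures.

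The compared pair was chosen as the most alike of the 4 arrays, so its closeness is a description. The names of their deposited files also share a code that the other 2 lack, and the labels do not say what it stands for. The log2 ratio had an SD of 0.57 and a median of -0.07 over the measured probes. Its SD was 0.53 over the 24197 probes detected on every one of the 4 arrays, against 0.86 to 1.14 for the other pairs of arrays. A difference of 4-fold or more was found for 581 probes (2.18% of 26603 with a ratio), of which 223 were higher in the labelled knockout (0.838%) and 358 lower (1.35%). At 2-fold there were 1094 higher (4.11%) and 1281 lower probes (4.82%), together 8.93%, and at 10-fold 25 higher (0.094%) and 102 lower ones (0.383%), together 0.477%. Limits made up 88 of the higher and 167 of the lower probes past 4-fold, and 108 of these higher and 227 of these lower probes had little signal on the other 3 arrays (under 0.05 times the 75th percentile). Higher probes were 38.4% of these calls with the 75th percentile, 49.1% when arrays were scaled to their medians and 54.4% without scaling, so the balance of directions rests on the scaling. Counted as genes, 1 probe each, 837 of 18552 were at least 2-fold higher (4.51%) and 921 at least 2-fold lower (4.96%), while 175 were at least 4-fold higher (0.943%) and 261 at least 4-fold lower (1.41%).

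**Figure D1:**
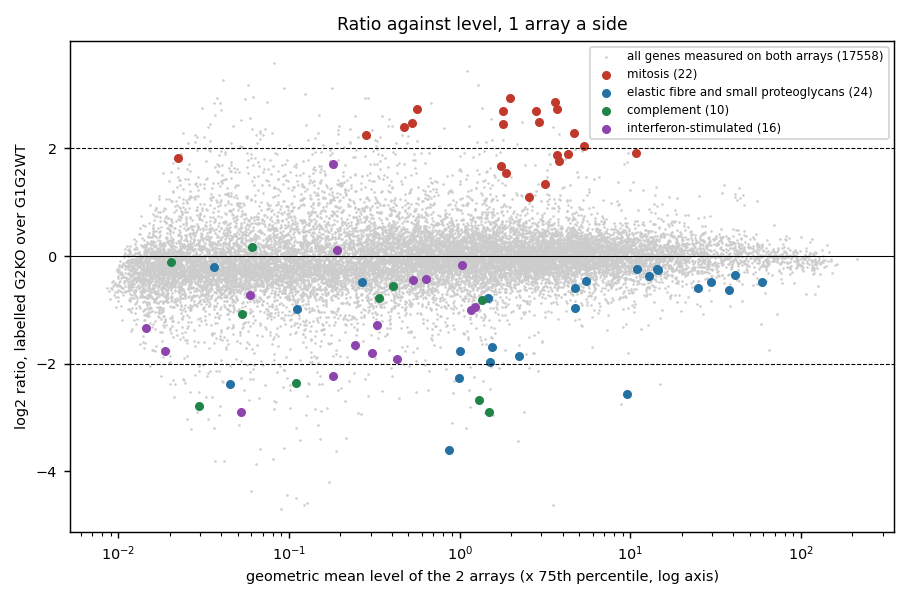
Log2 ratio of labelled G2KO over G1G2WT against the geometric mean level of both arrays (multiples of the 75th percentile, log axis), 1 point per gene measured on both arrays. Dashed lines mark 4-fold. Mitosis genes (red) all lie above 0, up to 2.94, and the elastic fibre and proteoglycan genes (blue) all lie below 0.

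The gene named in the knockout label differed by less than the software's error estimate. Ccng2, read by 1 probe at chr5:93705131-93705190 (mm9), stood at 0.0910 on the array labelled G2KO, 0.0806 on G1G2WT, 0.104 on G2WT and 0.0619 on DKO, a log2 ratio of 0.17 with an error of 0.21. The DKO array, whose cells also lack Ccng2 by label, was above background at this probe too, and the sources used here do not say which part of Ccng2 was deleted, so this probe checks neither label. Ccng1, at chr11:40562427-40562486, stood at 1.98 and 1.66 on the compared arrays, 9.45 on G2WT and below background on DKO, which carries the Ccng1 knockout. The Ccng1 ratio was 0.25 with an error of 0.20, and both compared arrays lay well under G2WT.

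Genes of mitosis gave the clearest group difference. All 22 genes of the mitosis list were higher on the array labelled G2KO by 2-fold or more, 13 of them by 4-fold or more, with a median log2 ratio of 2.26 beside -0.06 over all genes and 4.51% of all genes at least 2-fold higher. Their direction depends on the wild type chosen. Against G2WT, the wild type the labels set beside G2KO, the list's median was -0.95, and all 22 genes lay between both arrays labelled wild type, above G1G2WT and below G2WT. All 22 were also lower on DKO than on the array labelled G2KO.

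Promoters of these genes are shown because the members moved together. The letters TTTGAA, the core of the cell cycle homology region (CHR), were searched on both strands in RefSeq windows (GRCm38.p6) reaching 250 bases before and 50 after the start. They occurred in 12 of the 18 mitosis genes that matched by symbol (68.4% of 19 windows), in 2 of 19 matched genes for DNA replication, and in 17.9% of all 32851 windows. CCAAT, whose letters can share an end base with that element, occurred in 15 of 18 mitosis genes (84.2% of windows) and 37.4% of all windows. It also occurred in 12 of 19 DNA replication genes (60.9% of windows). Below, 150 bases before and 25 after the start are printed with TTTGAA in capitals. Ccnb2 is at chr9:70421530-70421704 (minus strand), Cenpa at chr5:30666736-30666910 (plus), Cdc20 at chr4:118437319-118437493 (minus) and Mki67 at chr7:135716355-135716529 (minus).
Ccnb2: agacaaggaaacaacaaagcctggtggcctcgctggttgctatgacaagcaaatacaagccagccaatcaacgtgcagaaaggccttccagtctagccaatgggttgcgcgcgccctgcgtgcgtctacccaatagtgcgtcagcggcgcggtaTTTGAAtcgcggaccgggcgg
Cenpa: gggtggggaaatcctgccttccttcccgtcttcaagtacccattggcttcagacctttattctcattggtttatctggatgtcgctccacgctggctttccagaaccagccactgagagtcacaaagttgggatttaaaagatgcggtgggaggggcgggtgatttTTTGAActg
Cdc20: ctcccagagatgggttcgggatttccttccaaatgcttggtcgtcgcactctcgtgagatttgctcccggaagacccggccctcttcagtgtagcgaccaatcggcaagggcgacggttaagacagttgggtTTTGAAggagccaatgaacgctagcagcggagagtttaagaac
Mki67: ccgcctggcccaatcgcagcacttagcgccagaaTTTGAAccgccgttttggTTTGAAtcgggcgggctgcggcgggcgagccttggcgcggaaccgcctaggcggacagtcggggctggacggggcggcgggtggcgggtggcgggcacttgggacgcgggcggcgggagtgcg
A match describes the letters in these windows and not a bound site.

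Cenpa, the histone H3 variant that marks centromeres, stood at 5.50 on the array labelled G2KO, 0.715 on G1G2WT, 7.01 on G2WT and 0.806 on DKO. Ccnb2, a mitotic B-type cyclin, stood at 9.71, 1.34, 11.2 and 1.86 in the same order. Plk1, a kinase of mitotic entry and spindle assembly, stood at 9.57, 1.44, 14.4 and 1.55. In each of these genes the array labelled G2KO and G2WT were high and the other 2 arrays low. Log2 ratios were 2.94 for Cenpa, 2.86 for Ccnb2 and 2.74 for Plk1, each with an error of 0.20.

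Ccnb1, the other B-type cyclin, was read by 3 probes with ratios from 2.69 to 3.06. Mki67, the proliferation marker Ki-67, stood at 10.3, 2.13, 23.1 and 2.66, and its 2 probes gave 2.28 and 2.31. Cdc20, an activator of the anaphase-promoting complex, had a ratio of 2.04. Cdk1, the catalytic partner of cyclin B, had the smallest ratio of the list, with its 3 probes between 0.74 and 1.41. Over all probes of the list, 33 of 33 were higher and 32 at least 2-fold higher.

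**Figure D2:**
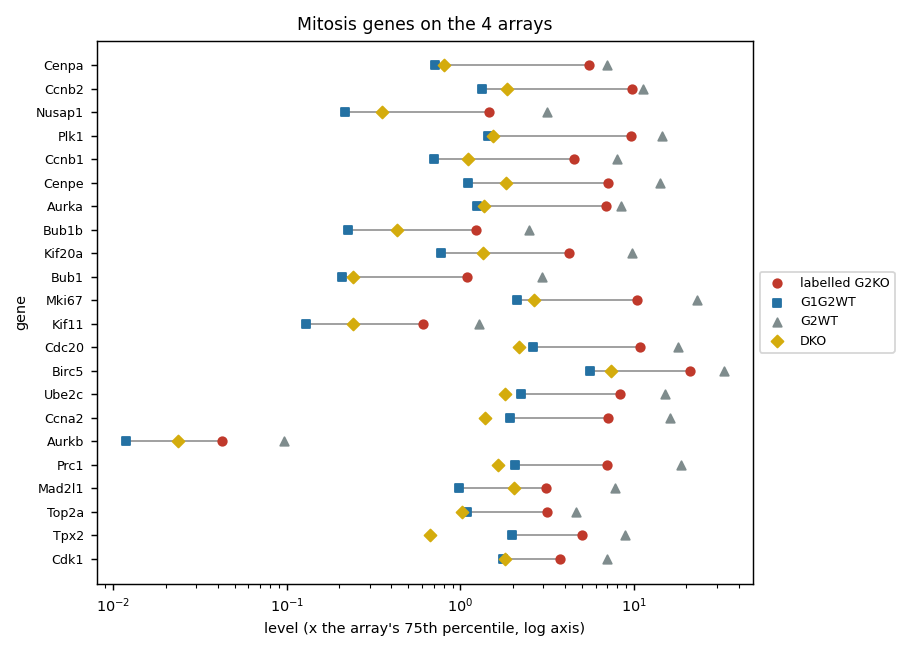
Level of each of the 22 mitosis genes on the 4 arrays (multiples of the array's 75th percentile, log axis), with a grey line joining the 2 compared arrays. For every gene the array labelled G2KO lies above G1G2WT and below G2WT.

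Related families were picked by name after their values were seen. They share members with the mitosis list, among them Cenpa, Cenpe, Kif11 and Kif20a. Of 17 centromere protein genes 12 were at least 2-fold higher (70.6%, beside 4.51% of all genes), with a median of 1.25. Kinesins split: 12 of 34 with a ratio were at least 2-fold higher and the median was -0.01. The highest kinesin ratio was Kif6 at 2.92, but its other probe read -0.64. The spindle motors Kif20a, Kif23, Kif11 and Kif4 had ratios of 2.45, 2.37, 2.24 and 2.22. The Hist genes had a median of 1.05, with 24 of 45 at least 2-fold higher, but the median fell to 0.47 with normexp background correction, and many are near-identical copies and a probe may read several of them. Among the genes with the highest ratios by single probes were Cdkn3, a phosphatase that acts on Cdk kinases, at 2.93 and Depdc1b at 2.94.

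DNA replication genes differed far less. Of 25 genes that license origins, copy DNA or make nucleotides, 23 were higher but only 2 at least 2-fold, with a median of 0.28. The 2 genes were Pola1, the catalytic subunit of DNA polymerase alpha, at 1.60 and Gmnn, which restrains origin licensing, at 1.07. Mcm6, a subunit of the replicative helicase, had a ratio of 0.10. Pcna, the sliding clamp, stood at 17.7 and 15.2 on the compared arrays and 30.4 and 11.8 on G2WT and DKO.

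DNA damage and p53 genes had small median ratios. Of 23 damage and repair genes 2 were at least 2-fold higher (8.70%, beside 4.51% of all genes). They were Fancd2 of the Fanconi anaemia pathway at 1.95 and Brca1 at 1.29. Chek2, a damage checkpoint kinase, had a ratio of 0.91 and H2afx, the histone phosphorylated at breaks, 0.94, while Atm, the kinase that responds to breaks, had -0.26. The p53 targets had a median of 0.06 over 19 genes. Of these, 4 were at least 2-fold higher (21.1%, beside 4.51% of all genes) and 1 lower (5.26%, beside 4.96%). Cdkn1a, which encodes the cell cycle inhibitor p21, stood at 0.643 and 0.572 on the compared arrays against 8.20 on G2WT and 5.00 on DKO. Mdm2, the ubiquitin ligase of p53, stood at 7.61 and 6.14 against 19.3 and 32.5. Both compared arrays were low for these genes and close to each other. Gtse1, the p53 target list's only member at least 4-fold higher, had a ratio of 2.13 and is itself a gene of the late cell cycle.

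Inhibitors of cyclin-dependent kinases were also alike, with a median of 0.12 over 8 genes. Cdkn2a, which encodes p16 and Arf, stood at 24.3 and 23.3 on the compared arrays, 0.0157 on G2WT and 5.09 on DKO. Cdkn2d was the only member at least 2-fold apart, with a ratio of 1.34. Among cyclins and PP2A subunits none of 15 was 2-fold apart, and their ratios ranged from -0.60 for Ccnd2 to 0.25 for Ccng1.

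Serum-response and cytokine genes were higher in part. Of 24 immediate early genes with a ratio 8 were at least 2-fold higher (33.3%, beside 4.51% of all genes) and none was lower by that much, with a median of 0.45. Fos, a subunit of the AP-1 transcription factor, stood at 0.516 on the array labelled G2KO and between 0.0563 and 0.10 on the other 3. Egr1, a zinc finger factor induced by serum, stood at 8.41 and 1.74 on the compared arrays, 9.98 on G2WT and 1.86 on DKO. Fos was high on 1 array and Egr1 on both the array labelled G2KO and G2WT. Of 17 chemokines and cytokines 6 were at least 2-fold higher (35.3%) and none was 2-fold lower. Il6 had a ratio of 2.59, Cxcl5, which attracts neutrophils, 2.40 and Lif 2.13. This list's median of 0.60 ranged from -0.13 to 0.85 under other processing.

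**Figure D3:**
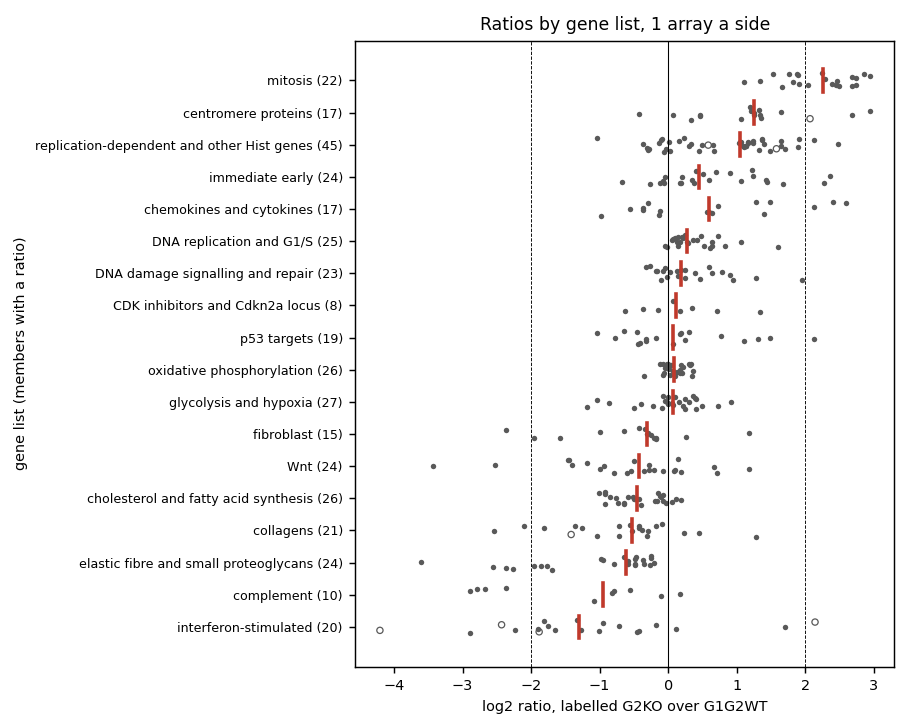
Log2 ratio of each gene by list, with the number of members that had a ratio in brackets. Filled points were measured on both arrays, open points are limits, red bars are list medians and dashed lines mark 4-fold. The mitosis median is 2.26 and the interferon-stimulated median -1.31.

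Matrix genes were lower on the array labelled G2KO than on G1G2WT. All 24 elastic fibre and small proteoglycan genes with a ratio were lower, 8 of them at least 2-fold (33.3%, beside 4.96% of all genes), with a median of -0.62. This direction depends on the wild type chosen, and against G2WT the list's median was 3.13. Podn, a small leucine-rich proteoglycan, stood at 0.247 on the array labelled G2KO, 3.02 on G1G2WT, 0.0451 on G2WT and 0.225 on DKO. Ogn (osteoglycin) stood at 3.92, 23.1, 0.203 and 1.59. In both genes G1G2WT was the highest array, and it was the highest of 4 for 19 of the 26 list members. The ratios were -3.61 for Podn and -2.56 for Ogn. Aspn (asporin) stood at 3.40 and 6.60 on the compared arrays and was below background on G2WT and DKO, which for G2WT is the reverse of what the supplement describes under these labels.

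Of 21 collagen genes 18 were lower and 7 at least 2-fold lower (33.3%, beside 4.96% of all genes), with a median of -0.52. Against G2WT the collagen median was 1.48. Col6a2, a chain of the beaded-filament collagen VI, stood at 5.19 and 18.1 on the compared arrays, 0.928 on G2WT and 4.96 on DKO. Col8a2 had a ratio of -2.55 and Col18a1, the source of endostatin, -2.10. The main fibrillar chains moved less, with -0.17 for Col1a1 and -0.31 for Col1a2, and Col7a1, of anchoring fibrils, was higher at 1.28.

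Complement genes were lower in part. Of 10 with a ratio 5 were at least 2-fold lower (beside 4.96% of all genes) and 4 at least 4-fold (beside 1.41%). The list's median was -0.95, but 0.07 with G2WT as the reference, so the lower direction depends on the wild type chosen. C1s, a protease of the first complement component, stood at 0.543 on the array labelled G2KO, 4.05 on G1G2WT, 0.723 on G2WT and 6.76 on DKO. C1ra, its partner protease, stood at 0.515, 3.29, 1.20 and 5.81. Here G1G2WT and DKO were high and the other 2 arrays low. Ratios were -2.90 for C1s and -2.67 for C1ra.

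Interferon-stimulated genes were lower in most cases. Of 20 with a ratio 12 were at least 2-fold lower (60.0%, beside 4.96% of all genes) and 2 at least 2-fold higher, with a median of -1.31. The other 4 of 24 were dim on both arrays. With normexp background correction the median was -0.92. Usp18, which limits interferon signalling, stood at 0.0190 on the array labelled G2KO, 0.142 on G1G2WT, 0.0312 on G2WT and 0.0323 on DKO. On every array but G1G2WT Usp18 was under 0.05, as in the probes with signal on 1 array only described under other observations. Isg15, a ubiquitin-like modifier, stood at 0.163, 0.572, 0.428 and 0.199. Ifit1, an RNA sensor of the antiviral response, was dim on the array labelled G2KO and at 0.122 on G1G2WT, so its ratio of -4.21 is a limit. Oasl2 went the other way at 1.71. The list's highest value, measured or limit, was 2.14, its only member at least 4-fold higher.

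Ifit1 and Isg15 are shown for the interferon-stimulated response element. GAAA, any 2 bases and GAAA again, on either strand, occurred in 11 of 18 matched genes of the list (55.0% of 20 windows) and in 3.44% of all windows. The same 150 and 25 bases are printed with matches in capitals, read as the reverse complement in Ifit1. Ifit1 is at chr19:34640739-34640913 (plus strand) and Isg15 at chr4:156200794-156200968 (minus), where 3 matches overlap.
Ifit1: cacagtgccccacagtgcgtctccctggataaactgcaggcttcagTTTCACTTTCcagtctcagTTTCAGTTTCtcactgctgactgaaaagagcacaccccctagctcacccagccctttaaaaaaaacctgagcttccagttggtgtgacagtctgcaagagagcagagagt
Isg15: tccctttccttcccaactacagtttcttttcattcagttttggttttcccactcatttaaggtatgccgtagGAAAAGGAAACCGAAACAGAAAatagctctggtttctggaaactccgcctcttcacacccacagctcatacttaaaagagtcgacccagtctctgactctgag

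**Figure D4:**
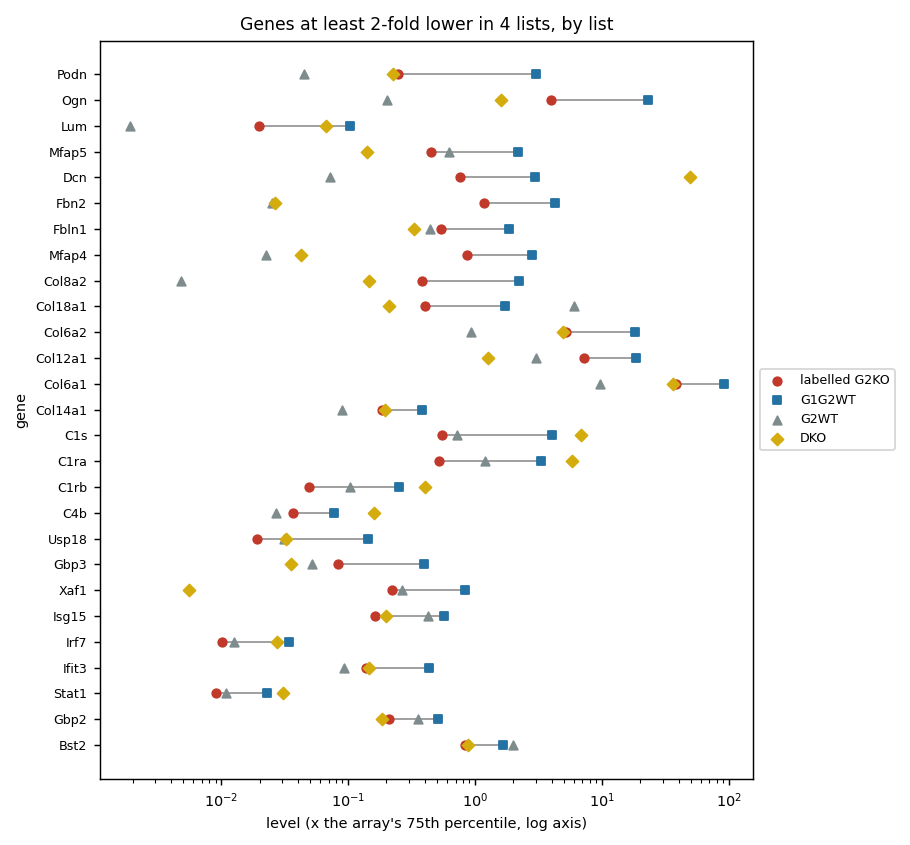
Level on the 4 arrays (multiples of the array's 75th percentile, log axis) of the genes measured on both compared arrays and lower in the labelled knockout by 2-fold or more, in 4 lists from elastic fibre at the top to interferon-stimulated at the bottom. Grey lines join the 2 compared arrays, genes were chosen for the plotted difference, and 1 gene of the complement list is not drawn.

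Signalling genes of the matrix environment included some of the lowest ratios. Of 24 Wnt pathway genes with a ratio 6 were at least 2-fold lower (beside 4.96% of all genes) and 1 higher (beside 4.51%). The Wnt median was -0.42. Sfrp2, a secreted Wnt binder, stood at 0.670 on the array labelled G2KO, 7.26 on G1G2WT, 0.0173 on G2WT and 0.0709 on DKO. Rspo2, which enhances Wnt signalling, had a ratio of -2.53. Of 26 TGF-beta and BMP genes with a ratio only 2 were at least 2-fold lower (7.69%, beside 4.96% of all genes) and 1 higher, with a median of -0.14. Bmp4, a bone morphogenetic protein, stood at 3.39, 22.8, 0.846 and 5.42, and Chrdl1, a secreted BMP antagonist, had a ratio of -2.80. In Sfrp2 and Bmp4 G1G2WT was the highest array. Apod (apolipoprotein D), a lipid carrier, stood at 0.704 on the array labelled G2KO and 17.4 on G1G2WT, with 0.0801 on G2WT and 0.143 on DKO, a log2 ratio of -4.63.

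Genes of energy metabolism differed little. Of 26 oxidative phosphorylation genes none was 2-fold apart, with ratios between -0.36 and 0.37. Of 27 glycolysis and hypoxia genes 2 were at least 2-fold lower (7.41%, beside 4.96% of all genes). Of 26 genes for cholesterol and fatty acid synthesis 23 were lower, but only Mvd, of the mevalonate pathway, passed 2-fold at -1.01.

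The fibroblast label held on both arrays. All 15 fibroblast markers were above background on both, with a median ratio of -0.31. Col1a1 stood at 37.2 and 41.9 and Vim (vimentin) at 55.4 and 62.5. Pdgfra and Dcn were lower on the array labelled G2KO, with ratios of -1.58 and -1.96. The Y-linked genes Ddx3y and Eif2s3y had ratios of 0.10 and 0.03, and Xist was below background on both arrays, while the supplement describes its G2KO MEFs as female. Of 75 genes that mark body position 33 had no ratio, and 3 were 2-fold apart. Among them Hoxb2, Hoxb4, Hoxb7 and Hoxb9 were below background on both compared arrays and on G2WT, and between 2.25 and 3.90 on DKO. Markers of other cell types were in part dim: 6 of 12 mesothelial, 5 of 12 epithelial, 3 of 10 endothelial and 3 of 11 macrophage markers were below background on both arrays. Summed over each list, mesothelial markers reached 1.43 on the array labelled G2KO and 1.12 on G1G2WT, against 150.2 on DKO. In the same order, macrophage markers reached 18.7 and 23.2 on the compared arrays. Other lists were brighter. Smooth muscle contractile markers summed to 346.4 and 435.7, with 11 of 13 above background on each array. Cartilage and bone markers summed to 56.3 and 45.9, with 10 of 14 above background on each. Krt19, a keratin of the mesothelial list, was higher at 3.13, with 0.524 and 0.0599 on the compared arrays, while Wt1 was below background on both. Their part in the results was not tested.

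Whole chromosomes differed little. Median ratios by chromosome ran from -0.16 to 0.07. On chromosome 13, which holds a large histone cluster, 6.52% of probes were at least 2-fold higher, or 4.71% without Hist genes, beside 3.31% of all measured probes. Within 5 Mb of the Ccng2 probe, 82 measured probes had a median of 0.03, with 10 at least 2-fold and 1 at least 4-fold apart. Within 5 Mb of the Ccng1 probe, 27 had a median of 0.01, with 3 at least 2-fold and 2 at least 4-fold apart. Of all measured probes 3.31% were at least 2-fold higher and 3.76% at least 2-fold lower, and 326 of 25174 were at least 4-fold apart.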

How the data were processed

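RNA of 4 MEF cultures was read on 1-colour (Cy3) Agilent Whole Mouse Genome arrays, all on 1 slide and in 1 scan. The deposited intensity values are signals that the authors' scanner software (Agilent Feature Extraction, 10.7.3.1 per the file headers and 10.5.1.1 in the submitters' processing notes) had background-subtracted. Probe positions are on mm9. Here, outlier and control spots were left out, spots of a probe were averaged on the log2 scale, and each array was divided by its 75th percentile. For a probe dim on 1 array, that array's lowest signal well above background, or the probe's own signal if higher, took its place. Genes were read by the probe with the highest mean signal over 4 arrays. The ratio code was tested on simulated data. Scripts used pandas 2.3.3 and limma 3.58.1 (normexp). Promoter sequences came from RefSeq (GRCm38.p6).

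Named genes were both cyclin G genes, the genes with the 20 highest and 20 lowest ratios and the 15 largest limits each way, genes the study discusses, and list members at least 4-fold apart, with the largest and brightest of each list. From these, those with a known role are described. The members and the 37 lists were chosen with earlier results of these data known, and 3 families and a few other list members were named after their values were seen. One gene of the complement list is counted there but not reported here by itself. The array number limits the precision.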

Additional observations from a re-analysis of the deposited data

How the results depend on the processing

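Counts of probes at least 4-fold apart (581, with 223 higher and 358 lower) depended on how dim probes were handled. They fell to 205 (66 and 139) with normexp background correction and to 326 (135 and 191) when both arrays had to be well above background. Without filter or limit they rose to 942 (414 higher). Against G2WT there were 1555 (1013 and 542) and the SD of the ratio was 0.89. At 2-fold there were 2375 (1094 and 1281) and at 10-fold 127 (25 and 102). Leaving out the scaling moved the median of all measured probes from -0.07 to 0.18 and the mitosis median from 2.26 to 2.51. Against G2WT the medians of mitosis (-0.95), centromere proteins (-0.52) and Hist genes (-0.70), each at least 2-fold against G1G2WT, changed sign. So did smaller medians, among them elastic fibre and small proteoglycan genes (-0.62 to 3.13) and collagens (-0.52 to 1.48). Others were Wnt genes (-0.42 to 0.90), fibroblast markers (-0.31 to 1.47) and DNA replication genes (0.28 to -0.44). The interferon-stimulated median kept its sign (-1.31 to -0.29). With G1G2WT kept, none of the list medians 2-fold apart changed sign under another setting. Of 360 list medians under another setting, 308 stayed within the software's median error estimate of 0.20. Of the values of single genes 414 stayed within it, 188 moved further and none 2-fold apart changed sign. Leaving out uneven spots, chosen after seeing the data, gave 205 higher and 274 lower. No paired analysis was possible because each group has 1 array, and no array could be left out.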

Other observations

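Many of the largest ratios came from probes with signal on 1 array only. Of the 358 probes at least 4-fold lower, 227 were under 0.05 times the 75th percentile on the other 3 arrays, as were 108 of the 223 higher ones. On the bright array the pixel mean exceeded the pixel median by more than 1.1 times in 33.0% of those 227 spots and 16.7% of those 108, against 6.11% and 0 of the remaining calls and 0.454% and 0.178% of probes at 0.05 to 0.5 there. Another measured probe of the same gene was at least 2-fold apart the same way for 9 of 42 and 2 of 8 of these genes, but for 32 of 39 and 23 of 27 of the remaining calls. Of the 227 spots 164 lay below the middle row of the grid, as did 91 of the 108 (72.2% and 84.3%, against 48.9% and 48.7% of the probes at 0.05 to 0.5). Olfactory receptor genes made up 12 of the 227. Among the 20 lowest measured ratios 11 were of this kind, among them Olfr611 at -4.50, and among the 20 highest 7, among them Kif6, whose probe read 2.92 while its other probe read -0.64. The cause was not tested.

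The median ratio also moved with signal. It was -0.24 in the dimmest eighth of the measured probes and 0.01 in the brightest.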
